A study of Mus musculus with 6 samples.

Results

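Fragments of the mitochondrial tRNAs for tryptophan, alanine, asparagine and cysteine (mt-tRNA-TrpTCA, -AlaTGC, -AsnGTT and -CysGCA, the suffix being the anticodon in DNA letters) were studied in pancreatic islets of obese *db/db* mice and *db/+* controls. The members are the tRNA-derived fragments (tRFs) that the deposited table of decreased tRFs assigns to 1 of these 4 tRNAs, 15 of its 170 tRFs and of its 147 mitochondrial ones. Of the members 9 come from mt-tRNA-AlaTGC and 2 from each of the others, and fragments of 1 tRNA mostly overlap in sequence, so they are not independent of each other. The *db/db* mice carry the leptin receptor mutation in every tissue on both alleles (labelled BKS(D)-Leprdb/JOrlRj) and the *db/+* mice on 1 allele (labelled BKS(D)-Leprdb/+/JorlRj), so the controls are carriers and not wild type. All were males of 16 weeks on chow, and 3 small-RNA libraries per genotype were made from hand-picked islets, which hold several cell types. The paper lists single mice for the sequencing, 3 of each genotype, under numbers that differ from those of the labels. The labels call the *db/db* mice pre-diabetic, while the paper's text calls them diabetic, with raised fasting glucose. Its methods name another colony for mice of this age, which could not be settled. The table holds tRFs only, so the tissue was not checked against marker genes, and in such bulk samples fewer cells of a type and less RNA per cell cannot be told apart.

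The mitochondrial genome encodes 22 tRNAs, which supply the ribosomes of the organelle while these make subunits of the respiratory chain, the machinery whose ATP links glucose to insulin release in β-cells. Both strands are read into long transcripts, from which the tRNAs are cut out and given a CCA tail that is not encoded. Genes mt-Tw, mt-Ta, mt-Tn, mt-Tc and mt-Ty form a compact cluster of 377 bases (chromosome M of GRCm38, 4950 to 5326). The gene mt-Tw, for tryptophan, lies on the plus strand (4950 to 5016), and mt-Ta (5018 to 5086), mt-Tn (5089 to 5159), mt-Tc (5192 to 5257) and mt-Ty (5260 to 5326) lie on the minus strand. Neighbours are 1 or 2 bases apart except mt-Tn and mt-Tc, whose gap of 32 bases (5160 to 5191) is where replication of the light strand starts. No fragment of mt-Ty, for tyrosine, was in the list. Of the 22 mt-tRNA genes 19 had a listed fragment, 12 of 14 on the plus strand and 7 of 8 on the minus strand.

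The 4 tRNAs are printed from the GENCODE M21 annotation with the added CCA, 5′ to 3′ and with the anticodon in capitals, because the fragments differ in where they were cut along them.
mt-tRNA-TrpTCA, 70 nt: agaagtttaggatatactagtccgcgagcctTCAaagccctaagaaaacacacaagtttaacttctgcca
mt-tRNA-AlaTGC, 72 nt: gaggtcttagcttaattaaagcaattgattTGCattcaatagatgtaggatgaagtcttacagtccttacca
mt-tRNA-AsnGTT, 74 nt: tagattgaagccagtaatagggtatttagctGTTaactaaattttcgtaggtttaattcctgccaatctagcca
mt-tRNA-CysGCA, 69 nt: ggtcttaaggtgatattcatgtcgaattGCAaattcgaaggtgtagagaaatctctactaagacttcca

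Among the fragments, the following 8 carry the contrasts between ends that the values turn on, and capitals again mark bases of the anticodon.
Trp 5′ fragment of 18 nt (4950 to 4967): agaagtttaggatatact
Ala 5′ fragment of 40 nt (5047 to 5086): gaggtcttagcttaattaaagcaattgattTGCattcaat
Ala 5′ fragment of 52 nt (5035 to 5086): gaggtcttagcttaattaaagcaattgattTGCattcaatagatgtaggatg
Ala 3′ fragment of 40 nt (5018 to 5054, then CCA): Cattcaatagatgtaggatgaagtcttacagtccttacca
Ala 3′ fragment of 39 nt (5018 to 5053, then CCA): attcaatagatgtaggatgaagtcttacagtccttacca
Asn internal fragment of 36 nt (5106 to 5141): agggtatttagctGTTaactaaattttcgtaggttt
Cys 3′ fragment of 55 nt (5192 to 5243, then CCA): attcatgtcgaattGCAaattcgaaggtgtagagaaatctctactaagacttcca
Cys 3′ fragment of 51 nt (5192 to 5239, then CCA): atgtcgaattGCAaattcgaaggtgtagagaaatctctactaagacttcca

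All 15 members matched their tRNA without a mismatch, and the authors assigned each to 1 tRNA only. Five-prime fragments, which begin at base 1 of the tRNA, numbered 5 and were 18 to 52 nt long. Three-prime fragments, which end in the added CCA, numbered 9 and were 33 to 55 nt long. The authors type these 9 as internal, a class that in the strict sense held only the Asn fragment of 36 nt, which covers bases 19 to 54. The CCA is put on tRNAs after their 3′ end has been processed, and no member reached into a neighbouring gene or a gap. The authors annotated tRFs against sets of tRNAs, so fragments that run past a tRNA may not have been listed, and nothing is read from this. The whole anticodon was present in 10 members, 4 held none of it, and the Ala 3′ fragment of 40 nt began at its last base.

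The parents differed in their kinds of fragment. For mt-tRNA-TrpTCA the list held a 5′ piece of bases 1 to 18 and a 3′ piece of bases 38 to 70, with the anticodon at bases 32 to 34 in neither. For mt-tRNA-CysGCA it held only 3′ fragments, which began at bases 15 and 19, upstream of the anticodon at bases 29 to 31. For mt-tRNA-AsnGTT it held a 5′ fragment of 38 nt and the internal fragment, and none with CCA. For mt-tRNA-AlaTGC 3 fragments began at base 1 and ended at bases 37, 40 and 52. The other 6 Ala fragments began at bases 18, 19 and 20 or at bases 33, 34 and 36, so their 5′ ends formed 2 groups, of which the second lay in and just after the anticodon (bases 31 to 33).

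**Figure D1:**
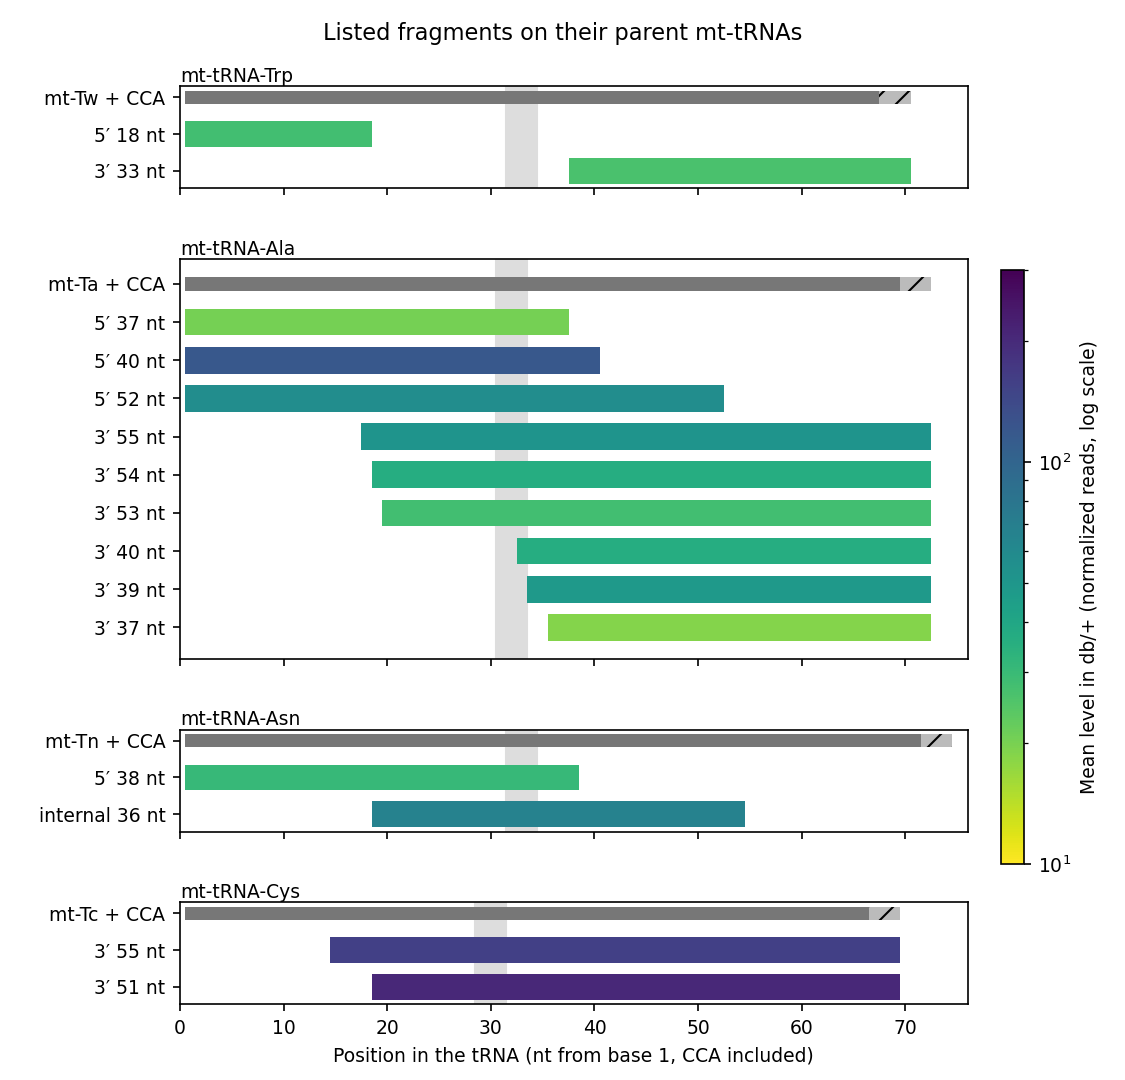
Each bar is a listed fragment placed on its parent tRNA (x axis, nt from base 1 with CCA included), coloured by its mean level in the 3 *db/+* libraries (normalized reads, log scale). Grey bars are the tRNAs, hatched ends the CCA and grey bands the anticodon; the 9 Ala fragments spread over the tRNA, the Cys fragments all reach the CCA, and neither Trp fragment touches the anticodon.

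Levels are normalized reads, that is, reads divided by the size factor of the library that the authors' DESeq2 run used. A read is a whole fragment, so levels of different fragments were compared per read and not per length. The 15 members were sequenced 934, 1116 and 1027 times in *db/+* replicates 1, 2 and 3 and 43, 234 and 211 times in the *db/db* libraries, in the same order. Thus *db/db* replicate 1 gave by far the fewest reads, with a size factor of 0.509 against 0.668 to 1.68 in the other 5 libraries. The summed level was 556, 700.4 and 1537 in *db/+* and 84.5, 233 and 175 in *db/db* replicates 1, 2 and 3. Replicate 3 of *db/+* was the highest and the groups did not overlap. Sequencing depth is unknown, because the table holds only tRFs listed for a decrease.

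Every member had a lower mean in *db/db* than in *db/+* islets, which is what put it in the list. By edgeR's quasi-likelihood test, with adjusted p of at most 0.05 over the 170 tRFs and a decrease of at least 2-fold, 15 of 15 passed, against 97.6% of the table. Their log2 fold changes ran from -2.93 to -1.91 with a median of -2.32, beside -2.42 over all 170 listed tRFs. These tRFs were selected on these same libraries and contrast, so these counts describe the list and give no further evidence of a decrease. For 13 of the 15 members all *db/db* values were under all *db/+* values, against 94.7% of the table. With libraries rescaled on the nuclear tRFs in the table, which are themselves there for a decrease, 0 of the 15 passed in edgeR and 2 had an unadjusted p under 0.05, beside 2 and 50 of all 170 tRFs.

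The tRNA for tryptophan is the one parent of the 4 on the plus strand. By the mean over the 6 libraries it had the lowest summed level of listed fragments among the 19 listed mt-tRNAs. In *db/+* replicate 1, however, its sum was above that of Asn (66.7 against 63.1). Its 5′ fragment of 18 nt, the shortest member, had 33.4, 25.1 and 25.4 normalized reads in *db/+* and 7.86, 3.98 and 5.82 in *db/db* replicates 1, 2 and 3. The groups were well apart and tight within, at 28.0 ± 4.67 against 5.89 ± 1.94 (SD, n = 3 per genotype), and edgeR gave -2.29 on the log2 scale (SE 0.52) at an adjusted p of 0.00445. Its 3′ fragment of 33 nt (4987 to 5016, then CCA) had nearly the same levels, 26.6 ± 6.95 in *db/+* islets and 5.35 ± 2.26 in *db/db* islets (SD, n = 3 per genotype), with a log2 fold change of -2.27. In every library the raw reads of both fragments differed by at most 4. The counts were low in *db/db* replicates 1, 2 and 3, with 4, 4 and 7 reads of the 5′ and 2, 8 and 5 of the 3′ fragment. Unlike the other 3 parents, this one was not highest in *db/+* replicate 3, where its summed level of 44.9 was the lowest of the *db/+* group.

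For alanine the member with the highest mean over the 6 libraries was the 5′ fragment of 40 nt, which ends 7 bases after the anticodon. It was above the Ala 5′ fragment of 52 nt only in *db/+* replicate 3 and *db/db* replicate 2. It had 26.8, 62.8 and 268 normalized reads in *db/+* and 1.96, 34.8 and 7.48 in *db/db* replicates 1, 2 and 3. Levels spread widely within each group, and *db/db* replicate 2 lay above *db/+* replicate 1, so the groups overlapped (two-sided exact permutation p = 0.2, and 0.1 is the least that 3 against 3 can give). By edgeR the log2 fold change was -2.93 (SE 1.01) at an adjusted p of 0.0153. It was -1.50 without *db/+* replicate 3, -4.47 without *db/db* replicate 2, and -2.48 without *db/db* replicate 1, where edgeR's adjusted p was 0.0632.

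The 5′ fragment of 52 nt, longer by 12 bases at its 3′ end, varied in another way. It had 62.5, 80.3 and 29.9 normalized reads in *db/+* and 3.93, 6.97 and 23.3 in *db/db* replicates 1, 2 and 3. Here *db/+* replicate 3 was the lowest of its group and *db/db* replicate 3 the highest, without overlap of the groups, and without that *db/db* library the log2 fold change went from -2.26 to -3.33. The third 5′ fragment, of 37 nt (5050 to 5086), was the lowest of the 3 in level at 20.4 ± 16.3 in *db/+* islets and 2.59 ± 2.14 in *db/db* islets (SD, n = 3 per genotype) and had the second-largest decrease of the members, a log2 fold change of -2.84 (-2.05 without *db/+* replicate 3 and -3.88 without *db/db* replicate 2). The reads of the 40-nt fragment divided by those of the 52-nt fragment gave 0.429, 0.781 and 8.95 in *db/+* and 0.5, 5 and 0.321 in *db/db* replicates 1, 2 and 3. Which of these 5′ fragments prevailed thus changed from library to library in both groups, and on the log2 scale the difference of the ratio between genotypes was within that spread (-0.55, exact permutation test, two-sided p = 0.6, adjusted p = 0.9 over the 4 parents; it turned to 0.74 without *db/+* replicate 3 and to 0.19 without *db/db* replicate 3).

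The 6 Ala 3′ fragments were more even in level. Means ran from 18.7 to 51.9 normalized reads in *db/+* and from 2.77 to 10.5 in *db/db* islets, and all 6 had groups without overlap. The smallest decrease of any member was that of the 40-nt 3′ fragment, at -1.91 on the log2 scale (SE 0.55) in edgeR at an adjusted p of 0.00703. The 37-nt 3′ fragment had 0 reads in *db/db* replicate 1, which allows up to 3 reads or 5.89 normalized reads there, and 5 and 4 reads in replicates 2 and 3.

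Fragments whose 5′ ends are 1 base apart could have unlike profiles across the libraries. The 3′ fragment of 40 nt, which keeps the last base of the anticodon, had 41.1, 48.3 and 19.5 normalized reads in *db/+* and 5.89, 7.96 and 14.1 in *db/db* replicates 1, 2 and 3. The fragment of 39 nt, which starts 1 base later, had 25.0, 38.3 and 80.8 in *db/+* and 3.93, 9.95 and 9.15 in *db/db* replicates 1, 2 and 3. Thus *db/+* replicate 3 was the lowest of its group for the longer and the highest for the shorter fragment, and their read ratio (39 nt over 40 nt) was 4.15 in *db/+* replicate 3 against 0.609 and 0.792 in replicates 1 and 2. For the fragments starting at bases 18 and 19 (55 and 54 nt) the read ratio was 3 in *db/+* replicate 3 against 0.728 and 1 in replicates 1 and 2. In *db/db* mice these 2 ratios ran from 0.647 to 1.25 and from 1 to 1.9, on between 2 and 19 reads a fragment. Without *db/+* replicate 3 the log2 fold change of the 39-nt fragment went from -2.54 to -1.93 and that of the 55-nt fragment from -2.21 to -1.54.

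For asparagine the internal fragment of 36 nt, which holds the anticodon in its middle, had 45.3, 32.6 and 121 normalized reads in *db/+* and 7.86, 11.9 and 8.31 in *db/db* replicates 1, 2 and 3. The *db/db* libraries were close to each other, while *db/+* replicate 3 stood above the rest, and the groups did not overlap. By edgeR the log2 fold change was -2.77 (SE 0.65) at an adjusted p of 0.00445, the third-largest decrease of the 15, and without *db/+* replicate 3 it was -2.02. The 5′ fragment of 38 nt (5122 to 5159) had 30.6 ± 16.6 in *db/+* islets and 6.98 ± 2.83 normalized reads in *db/db* islets (SD, n = 3 per genotype) and a log2 fold change of -2.15.

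The fragments of the tRNA for cysteine had the highest mean levels of the members, ranking 17th and 22nd among the 147 listed mitochondrial tRFs. Library by library, the 51-nt fragment was the highest member in 5 of 6, whereas the 55-nt fragment was below the Ala 5′ fragment of 52 nt in *db/+* replicates 1 and 2 and tied for 8th in *db/db* replicate 1. The 3′ fragment of 51 nt had 81.0, 153 and 383 normalized reads in *db/+* and 19.6, 52.7 and 35.7 in *db/db* replicates 1, 2 and 3. The groups did not overlap although they spread widely, and edgeR gave -2.49 on the log2 scale (SE 0.78) at an adjusted p of 0.0101 (-1.67 without *db/+* replicate 3). The 3′ fragment of 55 nt, longer by 4 bases at its 5′ end, had 50.6, 79.7 and 343 in *db/+* and 3.93, 54.7 and 25.8 in *db/db* replicates 1, 2 and 3. Here *db/db* replicate 2 passed *db/+* replicate 1, so the groups overlapped (exact permutation test, two-sided p = 0.2). By edgeR the log2 fold change was -2.44 (SE 0.94) at an adjusted p of 0.0252. Without *db/+* replicate 3 it was -1.15 and without *db/db* replicates 1 and 3 it was -1.96 and -2.37, none of which passed edgeR's test (adjusted p = 0.0673, 0.0772 and 0.0631), while without *db/db* replicate 2 it was -3.31.

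**Figure D2:**
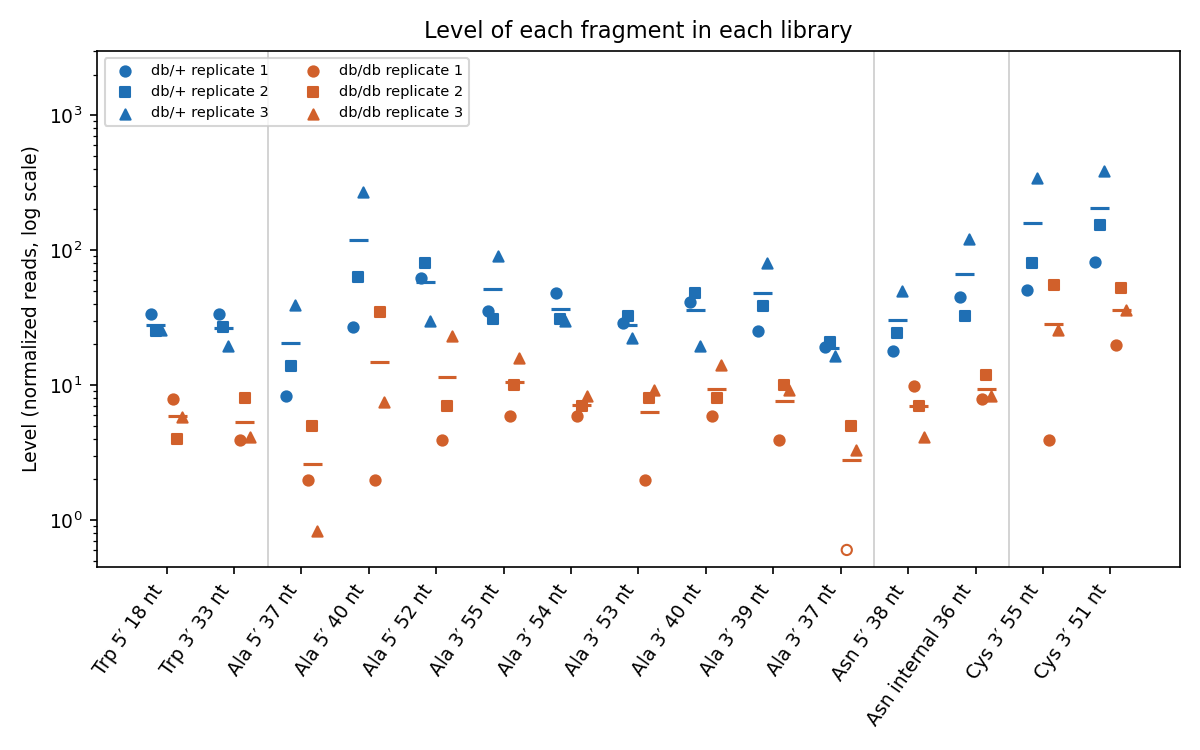
Normalized reads (y axis, log scale) of each of the 15 members in each library, with blue for *db/+*, orange for *db/db*, a symbol per replicate and short lines for the group means; the open circle at the bottom stands for 0 reads. Groups overlap only for the Ala 5′ fragment of 40 nt, where *db/db* replicate 2 reached 34.8, and the Cys 3′ fragment of 55 nt, where it reached 54.7.

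Summed over its fragments, each parent had non-overlapping groups, as did 94.7% of the single tRFs in the table. Each sum holds only tRFs listed for a decrease, so nothing is read from this. The sum for mt-tRNA-AlaTGC was the highest in *db/+* islets, at 416 ± 159 normalized reads against 72.5 ± 35.6 in *db/db* islets (SD, n = 3 per genotype). That for mt-tRNA-CysGCA was 363 ± 318 against 64.2 ± 42.0, that for mt-tRNA-AsnGTT 97.0 ± 63.9 against 16.4 ± 3.42, and that for mt-tRNA-TrpTCA 54.6 ± 11.1 against 11.2 ± 1.09 (SD, n = 3 per genotype). Ala and Cys did not differ in level beyond their spread, while the Trp sum was below the Ala and Cys sums in every library. Among *db/+* libraries the highest was 1.49 (Trp), 2.02 (Ala), 2.99 (Asn) and 5.52 (Cys) times the lowest. This order rested on *db/+* replicate 3, since between replicates 1 and 2 the same folds were 1.28, 1.22, 1.11 and 1.77.

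Log2 fold changes of the sums by limma on log2(sum + 1) were -2.17 (standard error 0.31) for Trp, -2.60 (0.56) for Ala, -2.33 (0.48) for Asn and -2.36 (0.78) for Cys. All 4 passed (adjusted p = 0.00171, 0.00614, 0.00614 and 0.0200), as did 100% of the 30 parents in the table, so nothing is read from this. The Cys sum did not pass without *db/+* replicate 3 (-1.68, adjusted p = 0.0605 from limma) or without *db/db* replicate 1 (-1.78, adjusted p = 0.0713 from limma). Over the listed mt-tRNAs of the plus strand the median change of the sums was -2.38 (12 parents) and over those of the minus strand -2.36 (7 parents).

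Whether the listed fragments of the 4 parents changed to different degrees was asked with ratios inside each library. These ratios depend on the scaling between libraries only through the pseudocount of 1. The list was not chosen on them, but each sum holds only tRFs listed for a decrease. Fragments of a parent that did not fall, if any, are missing. The ratios therefore cannot show how unlike the parents changed as a whole. For none of the 6 pairs of parents was a difference between genotypes larger than the spread between libraries. The log2 ratio of Trp to Ala, the pair with the most unlike fold changes, was -2.86 ± 0.79 in *db/+* islets and -2.43 ± 0.95 in *db/db* islets (SD, n = 3 per genotype), a difference of 0.43 (exact permutation test, two-sided p = 0.7, adjusted p = 1 over the 6 pairs). It was 0.39 with a pseudocount of 0.5 and 0.65 with 5. The other 5 differences lay between -0.26 and 0.19 with exact two-sided p from 0.7 to 1. With 3 libraries per genotype the SD of these ratios was 0.17 to 1.52 on the log2 scale. The exact test of 3 against 3 cannot give a p under 0.1. No difference of any size could therefore pass 0.05, and the lack of a pass says nothing about equal change.

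The share of each parent was also set against all listed mitochondrial tRFs, with the same limit, since all of these are listed for a decrease. On the log2 scale the differences between *db/db* and *db/+* islets in this share of reads were 0.10 (standard error 0.64) for Trp, -0.32 (0.36) for Ala, -0.06 (0.55) for Asn and -0.09 (0.38) for Cys. By limma over the 19 parents none of these passed (adjusted p = 0.914, 0.525, 0.914 and 0.914), and 0% of all 19 did, with 1 of the 19 (5.26%), a parent outside the cluster, at an unadjusted p under 0.05. The signs for Asn and Cys turned with the choice of total or pseudocount.

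All 15 members together made up 4.86% (95% Wilson interval 4.56 to 5.17), 4.38% (4.14 to 4.64) and 4.40% (4.14 to 4.67) of the reads of listed mitochondrial tRFs in *db/+* replicates 1, 2 and 3. In *db/db* replicates 1, 2 and 3 they made up 4.10% (3.05 to 5.47), 4.13% (3.64 to 4.68) and 3.59% (3.15 to 4.10). Each *db/db* library lay below each *db/+* library, with means of 3.94% and 4.55% (exact permutation test, two-sided p = 0.1, the least possible here). The counting intervals of *db/db* replicates 1 and 2 overlap those of *db/+*, while that of *db/db* replicate 3 lies below them. Such intervals cover counting error only. The difference was -0.605 percentage points, -0.884 with all listed tRFs in the total and -0.645 with a mean level of at least 10. With mt-tRNA-His left out of the total it was -0.437 percentage points and the groups overlapped. The other compact group of mt-tRNA genes, for isoleucine, glutamine and methionine, has 18 listed tRFs, and the log2 ratio of the present members to these was -1.74 ± 0.44 in *db/+* islets and -1.92 ± 0.39 in *db/db* islets (SD, n = 3 per genotype), with overlapping groups.

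Inside the cluster the make-up varied widely between libraries of 1 genotype. Fragments of mt-tRNA-CysGCA took 23.7%, 33.2% and 47.2% of the members' reads in *db/+* replicates 1, 2 and 3 (95% Wilson intervals 21.0 to 26.5, 30.5 to 36.1 and 44.2 to 50.3) and 27.9%, 46.2% and 35.1% in *db/db* replicates 1, 2 and 3 (16.7 to 42.7, 39.9 to 52.6 and 29.0 to 41.7). Those of mt-tRNA-TrpTCA took 12.0%, 7.44% and 2.92% in *db/+* replicates 1, 2 and 3 (10.1 to 14.2, 6.04 to 9.13 and 2.05 to 4.14) and 14.0%, 5.13% and 5.69% in *db/db* replicates 1, 2 and 3 (6.56 to 27.3, 2.96 to 8.75 and 3.28 to 9.68). For both parents the 3 *db/+* intervals are apart, but such intervals take reads as independent molecules and are too narrow if PCR copies were counted. Mean shares of the parents in *db/db* and *db/+* libraries differed by -4.33 to 1.85 percentage points, with exact permutation p from 0.6 to 1, two-sided, and adjusted p = 1 over the 4 parents.

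**Figure D3:**
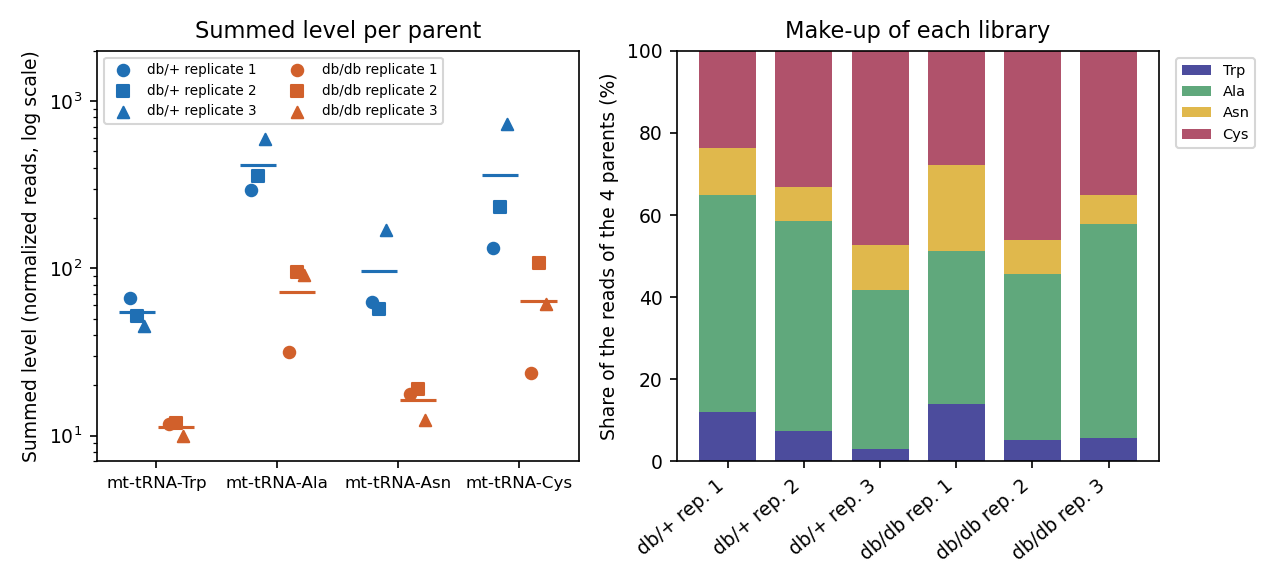
Left, summed level per parent in each library (normalized reads, log scale; blue *db/+*, orange *db/db*, lines for group means), where the groups of each parent are apart and the *db/+* points spread from Trp, with a highest-to-lowest fold of 1.49, to Cys, with 5.52. Right, the share of the members' reads (%) that each parent took in each library; the Cys share runs from 23.7% to 47.2% among *db/+* libraries.

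Among *db/+* libraries the kind of fragment was steadier than the make-up by parent, with an SD of 0.39 percentage points for fragments ending in CCA. Among *db/db* libraries this SD was 6.03, within the range of the parents' shares there (4.94 for Trp to 9.19 for Cys). Fragments ending in CCA made up 65.1%, 65.9% and 65.3% of the members' reads in *db/+* replicates 1, 2 and 3 (95% Wilson intervals 62.0 to 68.1, 63.0 to 68.6 and 62.4 to 68.2). In *db/db* mice the shares were 60.5%, 70.1% and 71.6% (45.6 to 73.6, 63.9 to 75.6 and 65.1 to 77.2). These values lie on both sides of the *db/+* values, and *db/db* replicate 1 rests on 43 reads.

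The members also differ in the bases at which the tRNA was cut, which here means the last base before and the first base after the end of a fragment. They have 16 ends inside a tRNA, and 10 of these lie between a pyrimidine and an A (T and A at 7, C and A at 3), among them both ends of the Asn internal fragment and the 5′ ends of both Cys fragments. In 9 members every internal end is of this kind, and in 6 it is not, with G and A, A and A, G and C, or T and T around the cut. These 6 are the Ala 5′ fragment of 52 nt, the Ala 3′ fragments of 54, 53, 40 and 37 nt, and the Trp 3′ fragment. How often a pyrimidine is followed by an A along these tRNAs was not counted, so no preference is read from the 10 of 16 ends.

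In *db/+* replicate 3 the level was 2.33 to 5.98 times the mean of *db/+* replicates 1 and 2 for 8 of the 9 members cut between a pyrimidine and an A. It was 0.419 to 0.828 times that mean for all 6 others, with the Trp 5′ fragment of 18 nt, at 0.871, the one member of the first kind that went with them. All listed mitochondrial tRFs together had 11450, 15986 and 34957 normalized reads in *db/+* replicates 1, 2 and 3. The folds are not corrected for this shift, so whether a member lies above or below 1 depends on the scaling of *db/+* replicate 3. End and parent are also mixed, since all Asn and Cys members are of the first kind. Both Trp members lay below 1 whatever their end (0.871 and 0.645). Only among the Ala fragments can the ends be compared apart from the parent. The division was not looked at in the other listed mitochondrial tRFs. The Ala 3′ fragments of 39 and 40 nt fall on opposite sides of this divide, as do those of 55 and 54 nt and the Ala 5′ fragments of 40 and 52 nt, while the Ala 3′ fragments of 54 and 53 nt fall on the same side. The 9 members took 58.1%, 65.8% and 91.0% of the members' reads in *db/+* replicates 1, 2 and 3 (95% Wilson intervals 54.9 to 61.3, 62.9 to 68.5 and 89.1 to 92.6) and 74.4%, 81.6% and 64.5% in *db/db* replicates 1, 2 and 3 (59.8 to 85.1, 76.2 to 86.1 and 57.8 to 70.6). The *db/db* shares lie inside the range of the *db/+* shares, with *db/db* replicate 2 the highest of its group. That library was also the one above a *db/+* library in both members whose groups overlap, and it had 7.37 times the mean of the other *db/db* libraries for the Ala 5′ fragment of 40 nt and 3.68 times for the Cys 3′ fragment of 55 nt. In that library the ends did not divide the members, since 6 of the 9 and 3 of the other 6 were above the mean of the other *db/db* libraries. The division by end was noticed in these data, and the part of RNA handling or of the library preparation in it was not tested.

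**Figure D4:**
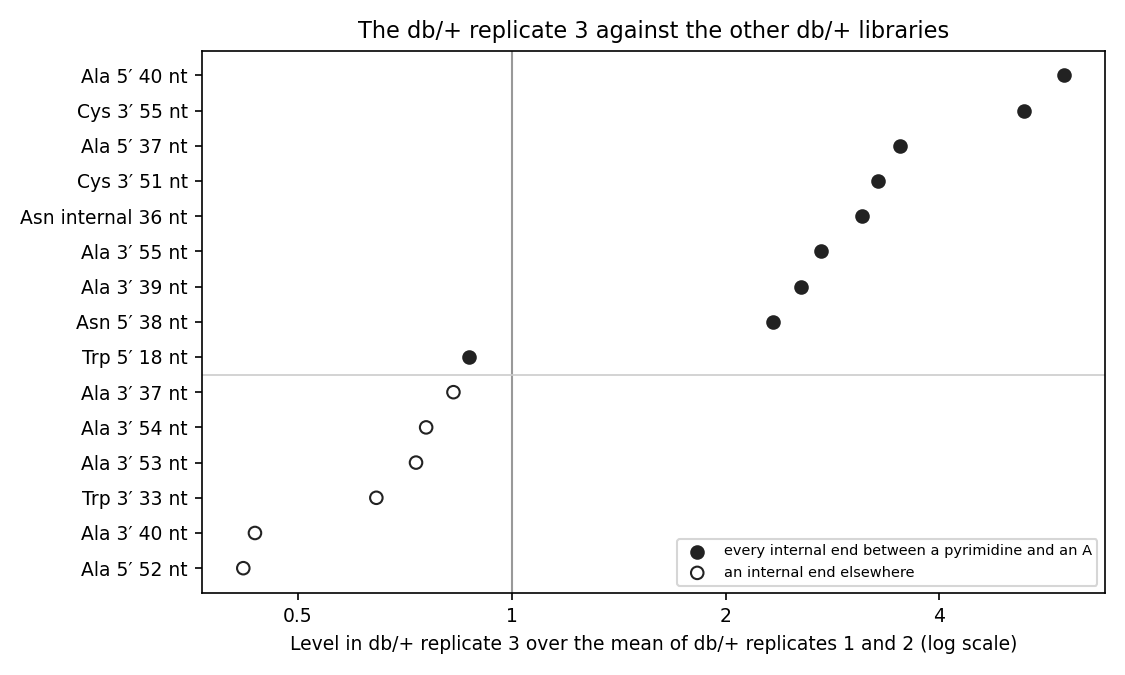
Level of each member in *db/+* replicate 3 divided by its mean level in *db/+* replicates 1 and 2 (x axis, log scale), with filled points for members whose internal ends all lie between a pyrimidine and an A and open points for the others. Filled points run from 0.871 (Trp 5′ fragment of 18 nt) to 5.98 (Ala 5′ fragment of 40 nt), and all 6 open points lie below 1.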

How the data were processed

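Small RNA of pancreatic islets was sequenced in 3 *db/db* and 3 *db/+* libraries. RNA was deacylated, end-repaired and demethylated (rtStar kit) before QIAseq miRNA library preparation. For annotation the authors used tRNA sets from mitotRNAdb, GtRNAdb and tRNAscan-SE, required 2 reads to call a tRF, and tested with DESeq2. FastQC is named in the submitters' processing notes. The sources used here do not name the aligner, the genome build or how molecular identifiers were treated. The deposited raw counts are whole reads per tRF and library, without normalization. The deposited mean signal is the authors' mean over the 6 libraries of counts divided by size factors, which were solved from it (largest misfit 2.27e-12). The deposited fold changes, standard errors, statistics and p-values of the authors were not used. Of per-sample columns, all 6 were used.

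Single tRFs were tested with edgeR 4.0.16 (R 4.3.3) on counts of all 170 tRFs, with library sizes proportional to the size factors, no filter, and Benjamini-Hochberg adjustment over the 170. Sums per parent (30 parents, pseudocount 1) and shares of mitochondrial parents (19) were tested with limma 3.58.1 with trend. Within-library ratios and shares were compared by exact permutation tests over libraries (SciPy 1.17.1). The edgeR and limma steps were tested on simulated data. Sequences were matched to GENCODE M21 transcripts (GRCm38) with CCA added. A count of 0 was read as up to 3 reads. The members, gene lists and tests were chosen with earlier results of these data known. All 15 members are named, with values in every library for the most abundant fragment of each parent and those whose groups overlap, and for the contrasts between ends chosen after seeing the data. Alternatives were DESeq2 1.42.0, other scalings, a mean level of at least 10, pseudocounts of 0.5 and 5, limma without trend, other totals, stricter thresholds, the replicate number as a block, and leaving out each library.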

Additional observations from a re-analysis of the deposited data

How the results depend on the processing

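All 15 members passed with DESeq2 (170 of 170 tRFs), with a mean level of at least 10 (149 of 153) and with the replicate number as a block (161 of 170). At an adjusted p of at most 0.01 12 passed (123 of 170), and at a decrease of at least 4-fold 14 (130 of 170). Leaving out 1 library at a time, 13 to 15 passed (143 to 162 of 170). Scaling decided the calls: 0 passed when rescaled to the listed nuclear tRFs, 0 with library sizes from the listed mitochondrial tRFs and 0 with TMM on the list (2, 0 and 0 of all 170). At an unadjusted edgeR p under 0.05 there were 2, 0 and 0 members and 50, 12 and 15 of all 170, and the median log2 fold change of all 170 moved from -2.42 to -1.16, -0.41 and -0.22. These scales remove by construction a decrease that the listed tRFs share. With library sizes from the mitochondrial tRFs the Ala 3′ fragment of 55 nt and the Asn 5′ fragment turned to 0.036 and 0.26. With TMM these were 0.012 and 0.16, and the Ala 3′ fragments of 53 and 40 nt turned to 0.093 and 0.25. Rescaled to nuclear tRFs, the sums changed by -0.91 (Trp), -1.29 (Ala), -1.06 (Asn) and -1.06 (Cys) and did not pass.

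The share of Asn among mitochondrial tRFs turned to 0.17 with pseudocount 5, 0.047 without mt-tRNA-His in the total and 0.089 relative to the geometric mean of the parents, and that of Cys to 0.0071, 0.019 and 0.061. The Asn to Cys ratio turned to -0.19 with the most abundant fragments.

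Leaving out 1 library at a time, the sums changed by -2.30 to -2.02 (Trp), -2.86 to -2.09 (Ala), -2.62 to -1.84 (Asn) and -2.91 to -1.68 (Cys), and the shares among mitochondrial tRFs by -0.48 to 0.60, -0.49 to -0.19, -0.57 to 0.29 and -0.30 to 0.14. Differences of log2 ratios ran from -0.12 to 0.80 (Trp to Ala), -0.46 to 0.53 (Trp to Asn), -0.62 to 0.89 (Trp to Cys), -0.68 to 0.31 (Ala to Asn), -0.63 to 0.093 (Ala to Cys) and -0.62 to 0.41 (Asn to Cys). Between the top fragments of a parent they ran from -0.31 to 0.53 (Trp), -1.65 to 0.74 (Ala), -0.86 to -0.21 (Asn) and -0.38 to 0.67 (Cys), and for the members against Ile, Gln and Met from -0.34 to 0.068. In percentage points, the share of the members ran from -0.702 to -0.432, that of fragments with CCA from -0.156 to 5.39, and those of Trp, Ala, Asn and Cys among the members from -2.04 to 3.08, -8.77 to -1.27, -2.59 to 4.32 and -3.86 to 7.92.

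Replicate numbers did not pair the libraries: over the 170 tRFs, deviations of same-numbered libraries correlated at 0.205, -0.258 and -0.225, and *db/+* replicate 3 correlated best with *db/db* replicate 2 (0.414). With the replicate block no call of a member or sum changed, and 161 of the 170 tRFs passed against 166 without it. Low counts, above all the 43 reads of *db/db* replicate 1, limit the precision.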
